A study of Mus musculus with 8 samples.

Results

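Replication-dependent histone genes encode the histones that package newly copied DNA. The 69 genes described here are all entries of the count lists whose symbol begins with Hist1h, Hist2h, Hist3h or Hist4h, out of 24639 entries. This rule reads symbols only, but it was set with earlier results of these data known. By class the 69 genes are 6 of the linker histone H1, 19 of H2A, 19 of H2B, 12 of H3 and 13 of H4. In the GRCm38.p6 assembly 55 of them lie on chromosome 13, 10 on chromosome 3, 3 on chromosome 11 and 1 on chromosome 6, and 2 are annotated as pseudogenes (Hist1h2al and Hist3h2bb-ps).

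Most messenger RNAs end in a poly(A) tail. Replication-dependent histone mRNAs are the known exception, because they end a few bases past a conserved stem-loop that is bound by the stem-loop binding protein SLBP, and they are made in S phase and lost quickly when DNA synthesis stops. Some members of the family are also known from other cells to give polyadenylated transcripts, among them Hist1h1c, Hist1h2bc, Hist2h2be, Hist3h2a, Hist3h2ba and Hist4h4. A library made by poly(A) selection and a library made by adapter ligation of fragments bound to AGO2, the Argonaute protein that carries microRNAs, can therefore give different views of the same genes.

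The cells were primary mouse glomerular mesangial cells (MMC), the contractile cells of the kidney glomerulus, at passages 5 to 7, from C57BL/6J WT mice and from miR-379KO mice, which carry a small homozygous deletion at the microRNA gene Mir379 made with CRISPR-Cas9 nickase. Mir379 itself had 0 counts in all 4 total RNA libraries, 0 and 4 in WT AGO2-IP and 1 and 0 in miR-379KO AGO2-IP, too few to check the labels. All cultures were kept in RPMI medium with 10% FBS and were otherwise untreated. The 8 libraries form 4 groups of 2 replicates (A and B): total RNA of WT cells, total RNA of miR-379KO cells, and AGO2-IP of each genotype. The total RNA assay used a stranded kit that selects poly(A) RNA, whereas AGO2-IP libraries came from UV cross-linked, sonicated lysates pulled down with anti-AGO2 beads and ligated to adapters without poly(A) selection. The sources used here do not say whether replicates were separate cultures or animals, so p-values measure only the spread between these libraries, and fewer cells in S phase and less histone RNA per cell cannot be told apart.

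The annotated ends show the feature that sets these genes apart. A script found the stem-loop, with at most 1 mismatch, in 64 of 69 genes, at an exact canonical form in 59, and the RefSeq transcript ended 4 to 8 bases past it in 57. The form shared by 42 genes of H1, H2A, H2B and H3 was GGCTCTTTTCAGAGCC. A second form with a different loop, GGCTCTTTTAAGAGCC, was found in 9 genes of these 4 classes, and the H4 genes had their own form, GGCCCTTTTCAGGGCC, in 8 of 13. The examples are given in the sense direction from the RefSeq genome GRCm38.p6, with the stem-loop in capitals and 5 bases on each side, for the genes that lead the counts of their class and for 1 imperfect form.
Hist1h1c, chr13:23739507-23739532, plus strand: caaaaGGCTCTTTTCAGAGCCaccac
Hist1h2bc, chr13:23684642-23684667, plus strand: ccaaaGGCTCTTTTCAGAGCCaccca
Hist3h2a, chr11:58955167-58955192, plus strand: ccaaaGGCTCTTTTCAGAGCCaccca
Hist1h3c, chr13:23745042-23745067, minus strand: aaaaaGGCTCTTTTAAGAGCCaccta
Hist2h2bb, chr3:96270166-96270191, plus strand: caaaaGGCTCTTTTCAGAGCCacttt
Hist1h4d, chr13:23581945-23581970, plus strand: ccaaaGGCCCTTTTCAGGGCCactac
Hist1h4h, chr13:23531453-23531478, plus strand: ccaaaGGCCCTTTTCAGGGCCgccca
Hist2h4, chr3:96262934-96262959, minus strand: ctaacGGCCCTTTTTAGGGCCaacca
The stem-loops of these 8 genes lie in the 3′-UTR, between 24 bases (Hist1h1c and Hist1h3c) and 41 bases (Hist3h2a) past the stop codon. Over the protein-coding members with a stem-loop the distance was 21 to 58 bases. The pseudogene Hist3h2bb-ps has no annotated stop codon, and its stem-loop lies past the annotated transcript end, reaching 44 bases beyond it.

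A longer end was annotated in a minority. Hist1h2bc, Hist1h2be, Hist1h2bp, Hist1h2bq and Hist1h2br each have a spliced transcript that runs past the stem-loop, by 7818 bases of genome in Hist1h2bc and 1861 in Hist1h2be. Hist1h3e ends 428 bases past its stem-loop. Hist2h2be, whose annotated transcript has 2667 bases, and the pseudogene Hist1h2al with 2983 bases held no stem-loop by this search, and neither did the short transcripts of Hist1h3g, Hist1h4b and Hist1h4j, which have under 500 bases (492, 450 and 423). Hist1h1c and Hist3h2a were annotated to end only 4 and 5 bases past the stem-loop.

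Because many of these genes are near copies of each other and only uniquely placed reads were counted, some could hardly be counted at all. Of the 69 genes, 10 had 0 counts in every library, and 9 of those 10 belonged to the 10 genes in which at most 15% of 100-base windows were found at 1 place in the genome. The other gene of that group, Hist2h3c1, had 1 count. The exception among the genes without counts was Hist1h2ba, a testis histone gene with 76.0% unique windows. The 13 genes with over 15% to 50% unique windows had a median of 53 counts over the 4 AGO2-IP libraries, the 24 with over 50% to 80% had 106.5, and the 22 above 80% had 111.5. Across the 69 genes, AGO2-IP counts per kb and the unique share had a Spearman rho of 0.40, a description over genes that share libraries. Counts of single members are therefore lower limits, and levels of different members are not directly comparable. The paper reports paired-end reads for AGO2-IP and names shorter single-end reads among those of its RNA sequencing. With 50-base windows the unique share was 24.5% in Hist1h2bn (58.3% with 100 bases) and 68.6% in Hist1h4d (100%). In Hist3h2a and Hist2h2be it was 90.8% and 99.2% (100% in both). The part of read length in the differences between assays was not tested.

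In total RNA, 4 genes held nearly all histone counts. The 69 genes together summed to 2253 and 2508 counts for the WT replicates and to 4230 and 2227 for the miR-379KO replicates. Hist1h1c, Hist1h2bc, Hist3h2a and Hist2h2be, all of them on the list of known polyadenylated members above, made up 90.3% (95% Wilson interval 89.0 to 91.4) and 91.5% (90.4 to 92.6) of these in WT, and 90.5% (89.6 to 91.3) and 89.1% (87.7 to 90.3) in miR-379KO. These intervals cover counting error only. The list was drawn up with earlier results of these data known, so the match with it is no independent support. The 4 genes were also the only members with 100 or more counts in any total RNA library. Of the other 65 genes, 15 had no count in any total RNA library, which allows up to 3 counts over a group.

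Hist1h1c, which encodes the linker histone H1.2, had 852 and 1259 total RNA counts in WT, then 1704 and 977 in miR-379KO. Hist1h2bc, an H2B gene with a spliced longer transcript, had 859 and 799 counts in WT, against 1702 and 790 in miR-379KO. The miR-379KO A library stood above the other 3 in both genes, and it was also the deepest, with 22660743 gene counts. Hist3h2a, an H2A gene outside the large cluster, had 179 and 142 counts in WT, against 253 and 125 in miR-379KO, while Hist2h2be had 144 and 96 against 169 and 92. Per kb of exon, the mean level in WT total RNA was 36.5 CPM for Hist1h1c, 26.6 for Hist1h2bc, 7.82 for Hist3h2a and 1.11 for Hist2h2be. Here CPM is the count per 1e+06 of the library size scaled by edgeR's TMM factors of all 8 libraries. The other 2 genes on the list were low, as Hist3h2ba had 2 and 10 counts in WT, against 10 and 6 in miR-379KO, and Hist4h4 had 0 and 1 in WT, against 0 and 2 in miR-379KO.

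The long-ended rule and the total RNA counts did not single out the same genes. Hist1h2be, long-ended, had 28 and 20 counts in WT, against 90 and 25 in miR-379KO total RNA. Hist1h3e, long-ended too, had 1 and 1 against 4 and 7. The rule also takes in Hist1h2al, Hist1h3g, Hist1h4b and Hist1h4j, only because the search found no stem-loop with at most 1 mismatch. Apart from Hist1h2al these have short annotated transcripts, so the rule does not show a longer end in them. Hist1h2al, Hist1h3g, Hist1h4b and Hist1h4j had between 0 and 2 counts in every total RNA library. Hist1h1d, Hist1h1e and Hist1h1b, linker histone genes with a stem-loop and a short annotated end, had more counts than those 5 genes, at 26 and 22, 20 and 17, and 12 and 19 counts in WT. Among core histone genes with short annotated ends other than Hist3h2a, the highest were Hist1h4h (15 and 22 counts in WT, 51 and 19 in miR-379KO), Hist1h3b (18 and 8, then 32 and 22), Hist1h2ab (16 and 10, then 25 and 15), Hist1h4i (13 and 17, then 17 and 22) and Hist1h3d (7 and 10, then 20 and 6).

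In AGO2-IP the same 69 genes gave 2252 and 2029 counts in WT, against 1053 and 1400 in miR-379KO, from libraries with 5587611 to 17095021 gene counts, of which 1115782 to 1875037 lay outside the ribosomal precursor Rn45s and Lars2. Their make-up was turned around. The 4 genes that led total RNA fell to shares of 11.6% (10.3 to 13.0) and 13.3% (11.9 to 14.8) in WT AGO2-IP and 17.6% (15.4 to 19.98) and 12.4% (10.7 to 14.2) in miR-379KO AGO2-IP. The remaining 65 genes had 219 and 212 counts in WT total RNA, but 1991 and 1760 in WT AGO2-IP. In miR-379KO they had 402 and 243 counts in total RNA and 868 and 1227 in AGO2-IP. At least 10 counts in some AGO2-IP library were reached by 53 genes, against 15 genes in some total RNA library.

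**Figure D1:**
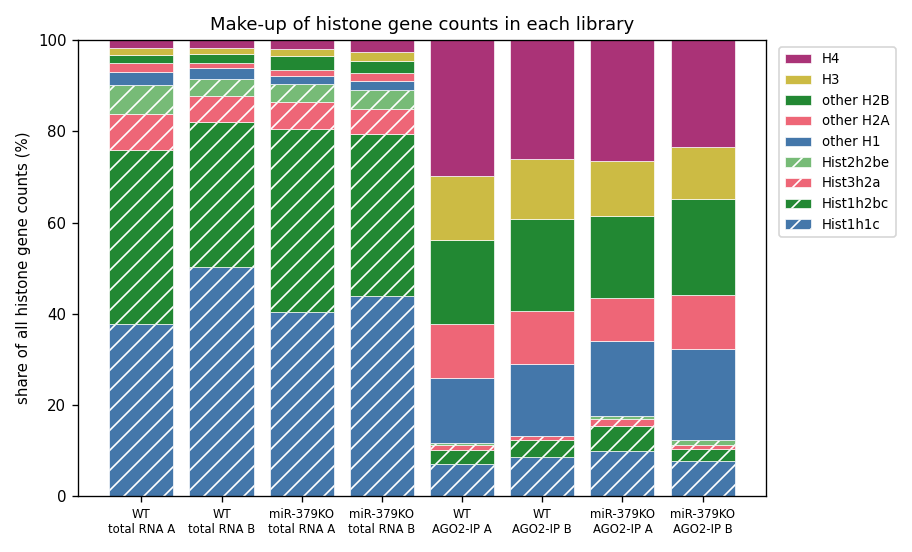
Share of all histone gene counts, in percent, taken in each of the 8 libraries by the 4 genes that lead total RNA (hatched) and by the other members of each class (plain). The hatched part covers 89.1% to 91.5% of the 4 total RNA bars and 11.6% to 17.6% of the 4 AGO2-IP bars.

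The classes shifted unequally. H4 genes made up 1.74% ± 0.0165 (SD, n = 2) of histone counts in WT total RNA and 27.9% ± 2.77 in WT AGO2-IP, and H3 genes 1.39% ± 0.0457 and 13.6% ± 0.520. H1 went from 46.6% ± 8.50 to 22.9% ± 1.95 and H2B from 42.0% ± 6.18 to 23.0% ± 1.82, while H2A went from 8.28% ± 2.29 to 12.7% ± 0.487. In miR-379KO the shares were 2.21% ± 0.489 and 25.0% ± 2.19 for H4, 1.88% ± 0.322 and 11.6% ± 0.414 for H3, 44.0% ± 2.78 and 27.1% ± 0.912 for H1, 44.6% ± 3.63 and 24.4% ± 0.301 for H2B, and 7.33% ± 0.0419 and 11.8% ± 1.39 for H2A. In both genotypes, all libraries of 1 assay lay on the same side of all libraries of the other for each class.

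On the TMM scale, the summed H4 level rose from 1.03 ± 0.144 CPM in WT total RNA to 154 ± 6.81 in WT AGO2-IP, a log2 ratio of 7.22, and the H3 level from 0.821 ± 0.0796 to 75.1 ± 1.26, a log2 ratio of 6.51. The log2 ratios of H2A, H2B and H1 were 3.86, 2.37 and 2.18. Leaving out the member with the most counts in each class brought H1 to 5.79, H2B to 4.72 and H2A to 6.26, so the smaller ratios of these classes came with Hist1h1c, Hist1h2bc and Hist3h2a. In miR-379KO the ratios were 5.62 for H4, 4.74 for H3, 2.80 for H2A, 1.41 for H1 and 1.21 for H2B. These sums had no test, and their values depend on the TMM factors, which were 2.15 to 2.44 in total RNA and 0.248 to 0.701 in AGO2-IP.

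**Figure D2:**
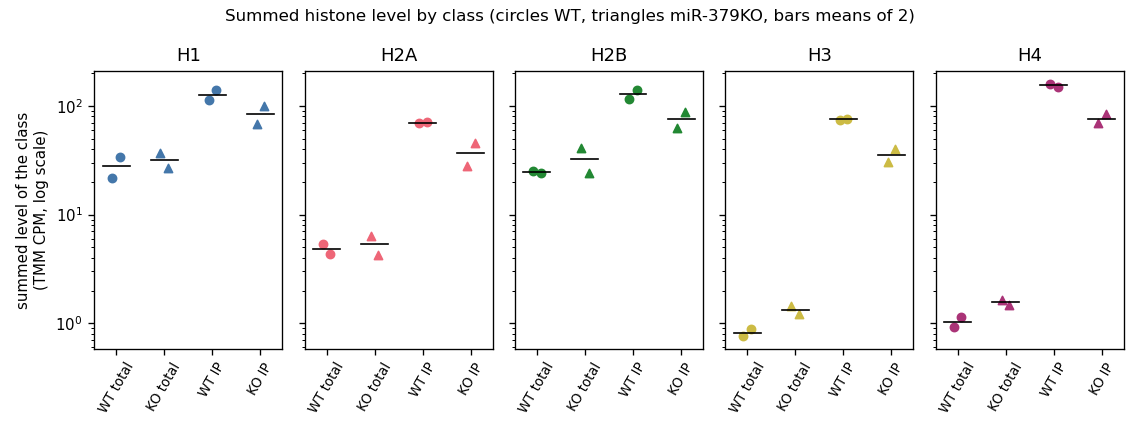
Summed level of each histone class in each library, in TMM CPM on a log axis, with WT as circles, miR-379KO as triangles and a bar at the mean of 2 replicates. H4 and H3 lie near 1 CPM in total RNA and between 30.8 and 159 CPM in AGO2-IP, whereas H1 and H2B already lie between 21.8 and 41.0 CPM in total RNA. The lower miR-379KO AGO2-IP values depend on the scale, since H1, H2A and H2B overlapped between genotypes when counts were scaled to the library total outside Rn45s and Lars2.

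Among single members, Hist1h4d led the AGO2-IP counts outside H1. It encodes histone H4, and it had 0 and 1 counts in WT total RNA, 3 and 5 in that of miR-379KO, 179 and 131 in WT AGO2-IP, and 81 and 88 in miR-379KO AGO2-IP. The ratio of scaled counts in WT was 3220, with an exact 95% counting interval from 574 upwards to 127595, because the denominator rests on 1 count. In miR-379KO it was 231 (114 to 543). Hist1h4f, another H4 gene, had 0 counts in all 4 total RNA libraries and 43 and 50 counts in WT AGO2-IP, at least 322-fold higher against a floor of 3 counts over the group, and 16 and 22 in its miR-379KO counterparts, at least 138-fold higher.

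Other leading members behaved in the same direction with more total RNA counts behind them. Hist1h4h had 111 and 87 AGO2-IP counts in WT, then 42 and 32 in miR-379KO, a log2 fold change over total RNA of 5.78 ± 0.40 (SE) in WT and 3.67 ± 0.38 in miR-379KO. The linker histone gene Hist1h1e had 121 and 104 AGO2-IP counts in WT, then 84 and 110 in miR-379KO, with log2 fold changes of 5.98 ± 0.32 and 6.06 ± 0.33. Hist1h1d, of the same class, had 103 and 99, then 49 and 90, with 5.45 ± 0.39 and 4.74 ± 0.38. These 6 differences passed edgeR's quasi-likelihood test, with the largest Benjamini-Hochberg adjusted p-value at 7.49e-07.

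In the other core classes, 5 members had few total RNA counts, whereas Hist1h3b had 80 counts over the total RNA libraries and 68 over the AGO2-IP libraries. For H2B, Hist2h2bb had 4 and 1 counts in WT total RNA, 0 and 3 in that of miR-379KO, 63 and 74 in WT AGO2-IP and 34 and 60 in miR-379KO AGO2-IP. For H3, Hist1h3c had 0 and 5, 3 and 5, 58 and 46, and 20 and 24 counts in the same order, and the long-ended Hist1h3e 1 and 1, 4 and 7, 57 and 39, and 18 and 26. For H2A, Hist2h2ac had 2 and 1, 1 and 2, 50 and 36, and 17 and 24 counts, and Hist1h2ak 1 and 3, 0 and 0, 49 and 36, and 20 and 26. In each of these 5 genes, but not in Hist1h3b, every AGO2-IP library lay above every total RNA library, although the AGO2-IP libraries were smaller.

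The genes that led total RNA did not follow. Hist1h1c had 161 and 172 AGO2-IP counts in WT, then 105 and 109 in miR-379KO, with log2 fold changes over total RNA of 0.73 ± 0.27 (adjusted p-value 0.0310, under the 2-fold minimum) and −0.05 ± 0.27. Hist3h2a had 25 and 14, then 16 and 13 counts, with 0.33 ± 0.38 and −0.10 ± 0.39. Hist2h2be had 7 and 3, then 8 and 15 counts, with −1.20 ± 0.54 (adjusted p-value 0.0696) and 0.10 ± 0.47. Hist1h2bc had 68 and 80, then 56 and 36 counts, with −0.08 ± 0.29 in WT and −1.15 ± 0.30 in miR-379KO, where it was the only member called lower (edgeR adjusted p-value 0.00267). DESeq2 did not call it. Hist1h2be lay between, at 44 and 48, then 20 and 28 counts, with 4.33 ± 0.49 and 2.37 ± 0.47, and Hist3h2ba was too low for the test, at 0 to 2 counts in each AGO2-IP library.

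**Figure D3:**
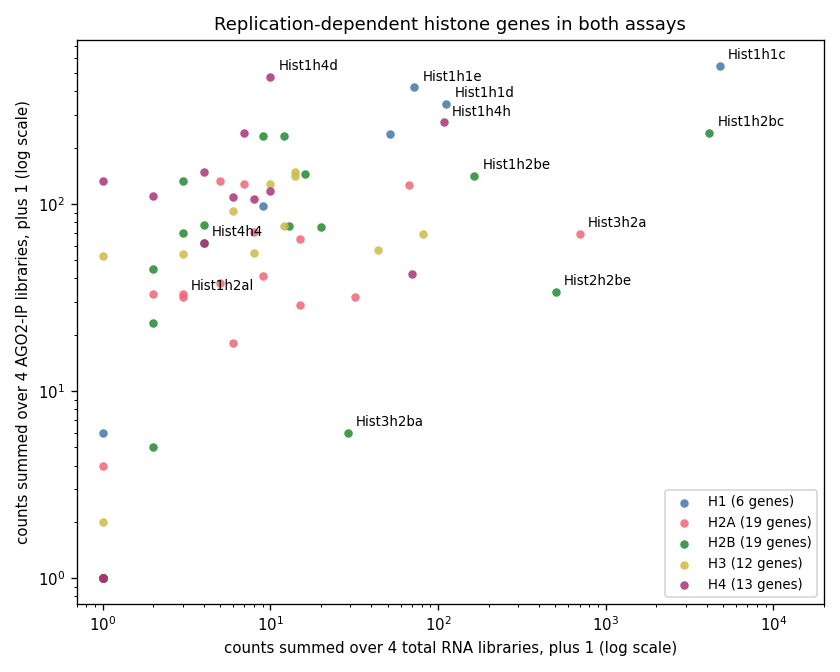
Counts of each of the 69 histone genes summed over the 4 total RNA libraries (x axis) and over the 4 AGO2-IP libraries (y axis), plus 1 and on log axes, coloured by class. Hist1h1c, Hist1h2bc, Hist3h2a and Hist2h2be lie far to the right, while most members lie at the left with few total RNA counts and up to 479 AGO2-IP counts (Hist1h4d), and 10 genes without any count lie at the lower left corner.

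Over the tested members, 49 of 53 were called higher in WT AGO2-IP than in WT total RNA and 0 lower (adjusted p-value under 0.05 and at least 2-fold), beside 35.7% of all 17429 genes tested called higher and 7.33% lower. DESeq2 gave the same counts, and 51 members had an unadjusted p-value under 0.05. The 4 genes not called were those that led total RNA. In miR-379KO, 49 of 53 were called higher and 1 lower, beside 41.6% and 19.3% of all genes. The median log2 fold change of members was 7.47 in WT and 6.06 in miR-379KO, or 6.97 and 5.94 with the 6 genes at 0 in the genotype's total RNA set to their lower bound, while all genes had medians of 0.49 and 0.47. A member with few total RNA counts could only enter the test through its AGO2-IP counts. Other genes in that position were also mostly called, as among genes with a mean of 0 to 10 total RNA counts 91.9% of 5119 others were called higher in WT and 99.6% in miR-379KO, against 40 of 40 members. At a mean of over 10 to 100 counts, 9 of 9 members were called higher in each genotype, against 34.2% and 60.3% of 2365 other genes. At a mean of over 100 counts, 0 of 4 members were called higher in each genotype, against 6.73% and 6.90% of 9892 other genes. These 4 members are the genes that led total RNA, so most other genes at their level were not called higher either.

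The AGO2-IP counts of the members were therefore set beside those of genes without visible transcripts. Protein-coding genes other than these, with 0 counts in all 4 total RNA libraries, numbered 5188, and they held 1.34 and 0.906 counts per kb of exon in the WT AGO2-IP replicates, against 3.08 and 3.52 in those of miR-379KO. The 65 histone genes outside the 4 leading ones held 47.9 and 42.4 counts per kb in WT and 20.9 and 29.5 in miR-379KO, which is 35.7 and 46.7 times the level of the silent genes in WT and 6.78 and 8.40 times in miR-379KO. Against the 213 silent genes that are short and rich in GC (at most 1000 bases and at least 55% GC), the WT factors were 35.6 and 83.4, while those of miR-379KO were 10.7 and 12.2. Of the 69 genes, 50 lay above the silent genes' rate in all 4 AGO2-IP libraries, among them 11 of 13 H4 genes and 10 of 12 H3 genes, and the 10 genes without counts lay above it in none. H4 and H1 had the most counts per kb of any class in each AGO2-IP library, with 52.2 to 125 for H4 and 61.2 to 108 for H1. The 15 members without total RNA counts, most of which have few unique windows, had only 5.65 and 6.10 counts per kb in WT and 2.42 and 3.05 in miR-379KO, which in miR-379KO is below the level of all silent genes but 1.24 and 1.26 times that of the short GC-rich ones.

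The genotype comparison in total RNA asked whether loss of miR-379 changed the histone transcripts that poly(A) selection keeps. Of 13 members tested, 0 were called by edgeR, 0 had an unadjusted p-value under 0.05 and DESeq2 called 0, beside 0.00% of 12321 genes called higher and 0.00% called lower. The median log2 fold change of miR-379KO over WT was 0.24, with all genes at −0.01. It turned to −0.023 without the miR-379KO A library and to −0.041 with a correction for GC content and transcript length. The smallest p-values belonged to Hist1h2be (0.97 ± 0.61 SE, unadjusted p-value 0.160) and Hist1h3b (0.83 ± 0.61, 0.224) above 0, and to Hist1h1b (−0.77 ± 0.62, 0.259) and Hist1h1e (−0.31 ± 0.53, 0.574) below 0, each with an edgeR adjusted p-value of 0.9997. For the leading Hist1h1c and Hist1h2bc the values were 0.14 ± 0.26 and 0.34 ± 0.28.

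In AGO2-IP, 8 of the 45 histone genes tested were called lower in miR-379KO than in WT on the TMM scale and 1 was called higher, beside 9.52% of 13505 genes called lower and 21.4% called higher. Point estimates lay below 0 for 44 of the 45. In CPM scaled over all 8 libraries, both miR-379KO libraries lay below both WT libraries in 41 members and in 44.8% of all 13505 genes. Both lay above in 1 member and 29.3% of all genes. The median log2 fold change was −0.69, with all genes at −0.01, and by class it was −0.83 for H3, −0.76 for H2A, −0.70 for H4, −0.61 for H2B and −0.33 for H1, but the median of all members reversed to 0.060 with the correction for GC content and transcript length, and the calls then numbered 4, 2 lower (Hist1h1a and Hist1h2be) and 2 higher (Hist1h1e and Hist1h2al). Histone genes are short and rich in GC, with medians of 492 bases and 60.3% against 2281 bases and 49.2% over all matched genes.

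The called members came from 4 classes. Hist1h4h fell from 25.5 ± 1.11 to 9.25 ± 1.53 CPM, with TMM factors from all 8 libraries. Its fitted log2 fold change, with factors from the 4 AGO2-IP libraries, was −1.21 ± 0.26 (SE, edgeR adjusted p-value 0.00167). The scales differ, and CPM falls further in miR-379KO than the fitted change. Hist1h4h was the only member that DESeq2 called (0.0336). Hist1h1a, an H1 gene with 28 and 47 counts in WT, against 13 and 8 in miR-379KO AGO2-IP, fell by 1.64 on the log2 scale (adjusted p-value 0.00547). Hist1h3c fell by 1.03, Hist1h4f by 1.09 and Hist1h2ai by 1.31 (adjusted p-values 0.0148, 0.0173 and 0.0245). The other 3 called lower were Hist1h3e, Hist1h4k, which is outside the naming rule and named after its value was seen, and Hist1h4d, whose log2 fold change of −0.66 turned to 0.13 with the correction. Of the 12 H2B genes tested, edgeR and DESeq2 called 0, with 5 at an unadjusted p-value under 0.05, and Hist1h2bb, the H2B member with the most AGO2-IP counts after Hist1h2bc and Hist2h2bb and named for that after its values were seen, had −0.69 ± 0.28 (adjusted p-value 0.0577).

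The 1 member called higher was the pseudogene Hist1h2al, with 5 and 3 counts in WT AGO2-IP and 10 and 13 in miR-379KO (log2 fold change 1.70 ± 0.50, adjusted p-value 0.0133). It is also the member with the longest annotated transcript, at 2983 bases, and its GC content of 50.02% is close to that of all genes. Hist1h1e was at 29.0 ± 0.631 CPM in WT and 24.4 ± 5.25 in miR-379KO (0.00 ± 0.23). Without miR-379KO AGO2-IP A, the number of calls was 3, Hist1h1a, Hist1h4h and Hist1h2bh, all lower.

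**Figure D4:**
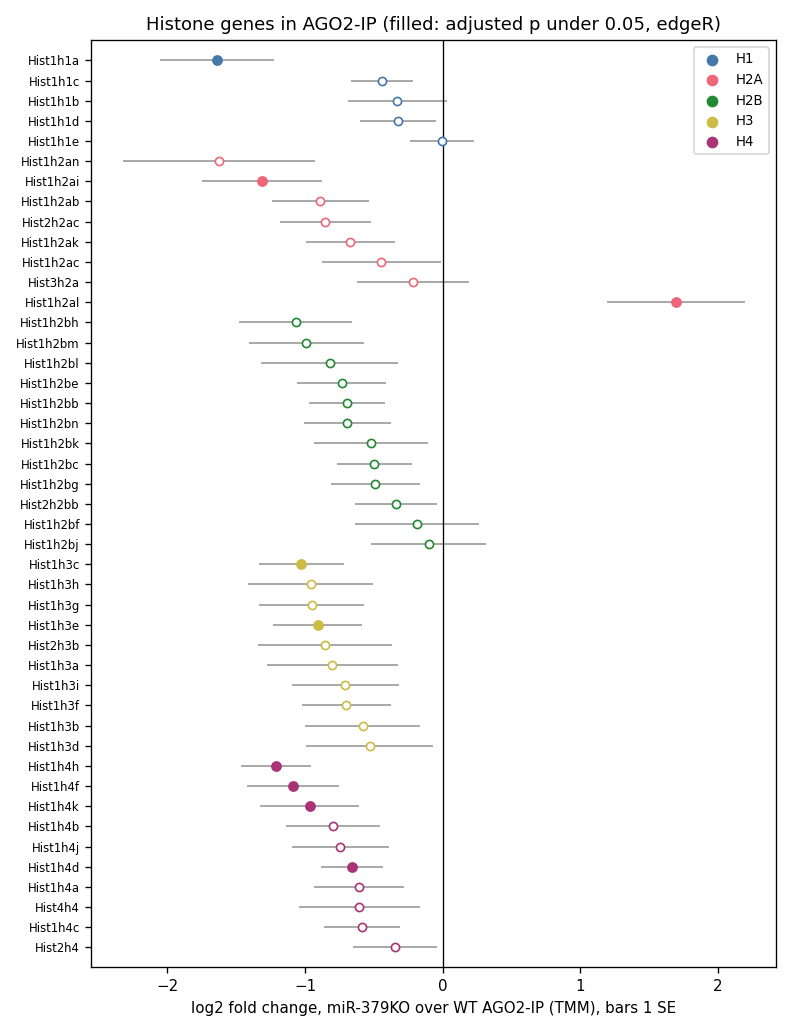
Log2 fold change of miR-379KO over WT AGO2-IP for the 45 tested histone genes, by class, on the TMM scale with bars of 1 SE, and filled where the edgeR adjusted p-value is under 0.05. All points but Hist1h2al lie below 0 on this scale, and the median of −0.69 turned to 0.060 with a correction for GC content and transcript length.

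The scale of the AGO2-IP libraries bears on these values. With the library total outside Rn45s and Lars2 in place of TMM, an alternative chosen after seeing the data, the median of all genes moved to 0.33 and that of members to −0.33, so members stayed 0.66 below all genes, against 0.68 with TMM. Calls on that scale were 2 lower (Hist1h1a and Hist1h4h) and 1 higher (Hist1h2al) of 46. The summed level of all members on that scale was 1232 ± 44.3 CPM in WT and 1030 ± 318 in miR-379KO AGO2-IP, and the genotypes overlapped, whereas in TMM CPM it was 554 ± 30.5 and 308 ± 69.7 without overlap. H3 and H4 did not overlap on either scale, at 0.71 and 0.74 of the WT level on the first and 0.47 and 0.50 on the second. Reads outside genes took 46.6% and 49.7% of the unique alignments of the WT AGO2-IP libraries and 73.4% and 76.4% of those of miR-379KO, and the part of this in the histone values was not tested.

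Other genes with as little total RNA cannot serve as a measure of these changes. Of 1526 other genes with a mean of over 0 to 10 total RNA counts, 93.7% passed the filter on low counts through the miR-379KO libraries alone, and 76.3% were called higher in miR-379KO. Of the 32 histone genes in that range, 22 passed it in both genotypes, 4 through miR-379KO alone and 3 through WT alone, and 1 was called higher and 6 lower. The shares of all genes called higher and lower given above include these other genes.

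An interaction term in the fit of all 8 libraries asked whether the AGO2-IP difference went beyond that of total RNA. Of 53 members, edgeR called 0, beside 0.00% of 17429 genes called higher and 0.00% lower. DESeq2 called 0 members and 114 of all genes. With edgeR 11 members had an unadjusted p-value under 0.05. The median was −1.03, with all genes at 0.01, but 40 of the 53 members had a mean of at most 10 total RNA counts. At a minimum mean of 50 counts, which left 7 members, the median was −0.29. The smallest edgeR p-values below 0 belonged to Hist1h4h (−2.11 ± 0.52 SE, adjusted p-value 0.234) and Hist1h3e (−3.19 ± 0.89, 0.235). Those above 0 belonged to Hist1h2ak (2.52 ± 1.12, 0.326) and Hist2h2be (1.30 ± 0.72, 0.381). None of these genes passed. Total RNA counts of Hist1h2ak were 1 and 3 in WT, then 0 and 0 in miR-379KO. For Hist1h3e they were 1 and 1, then 4 and 7. Without WT total RNA B 5 members were called, all lower, and with the correction for GC content and transcript length 4 were, all lower, which is 9.26% and 7.55% of members beside 8.57% and 7.36% of all genes. Hist1h4d and Hist1h4h were in both sets.

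Histone genes listed as replication-independent served as a contrast within the same family. Of 11 such genes, among them H2afz, H3f3a, H3f3b and H1f0, 0 were called higher in AGO2-IP than in total RNA in either genotype, while 4 were lower in WT and 10 in miR-379KO. Of other genes with a mean over 100 total RNA counts, 6.73% were called higher and 12.8% lower in WT, and 6.90% and 34.0% in miR-379KO. H3f3b, which encodes the replacement histone H3.3, had 7064 and 6909 counts in WT total RNA and 310 and 337 in WT AGO2-IP, a log2 fold change of −1.03 ± 0.29 (edgeR adjusted p-value 0.00669). In WT, H1fx, H2afv and H2afz were called lower too. H2afx went the other way there, without a call, at 13.9 and 18.2 CPM in total RNA and 24.6 and 19.3 in AGO2-IP. Between genotypes 0 of 11 were called in total RNA, where edgeR and DESeq2 called 0 of all genes, and 3 of 10 tested in AGO2-IP were lower in miR-379KO (H2afz, H3f3b and H2afy). In that AGO2-IP comparison 9.52% of all genes were called lower, and 26.4% of other genes with a mean over 1000 total RNA counts.

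The genes that act on histone mRNA and on S phase were counted as well. Of 13 factors of histone mRNA tested in total RNA, 0 differed between genotypes, and Slbp itself had 497 and 421 counts in WT, against 593 and 548 in miR-379KO. In AGO2-IP, Upf1, Sympk and Srrt were called lower in miR-379KO, 3 of 13, and 0 higher, where 9.52% of all genes were called lower, and 26.4% of other genes with a mean over 1000 total RNA counts. Of 17 S phase genes 0 were called in total RNA, where the median log2 fold change was 0.19 with 14 above 0. In AGO2-IP, Cdk2, Mcm7 and Mki67 were lower and Tyms higher, beside 9.52% of all genes called lower and 21.4% called higher. Over total RNA, AGO2-IP had 2 S phase genes higher (Tyms and Mki67) and 1 lower (Rrm2) in WT, and 1 higher (Tyms) and 12 lower in miR-379KO. Of the 14 factors, 1 was higher (Zfp473) and 1 lower (Lsm10) in WT, and 1 higher (Zfp473) and 5 lower in miR-379KO. Of all genes, 35.7% were called higher and 7.33% lower in WT, and 41.6% and 19.3% in miR-379KO. Among other genes with a mean over 100 total RNA counts, 12.8% were called lower in WT and 34.0% in miR-379KO.

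Of 6 mesangial markers, Acta2, Vim, Pdgfrb, Cspg4 and Des had at least 1193 counts in each total RNA library, and Itga8 had 7 to 38. Synpo and Podxl, listed for podocytes, had 3561 to 10980 and 301 to 575 counts, and Lrp2, listed for tubule cells, 24 to 472. The leukocyte marker Ptprc had 3 to 7 counts, and the endothelial Pecam1 and Cdh5 had 0 counts in 3 of 4 libraries and 6 and 4 in miR-379KO A. From WT to miR-379KO AGO2-IP, the summed mesangial markers went from 2704 and 3547 CPM to 1889 and 1311, and the replication-independent histones from 277.9 and 287.2 to 188.2 and 140.7. Sums of 3 lists were higher in miR-379KO, with 4 tubule markers at 11.3 and 15.6, then 26.8 and 35.5 CPM, 4 endothelial ones at 7.56 and 3.97, then 10.1 and 12.8, and 3 leukocyte ones at 8.27 and 5.67, then 14.02 and 22.0. Their part in the histone values was not tested. Protein-coding genes without total RNA counts also held more, at 1.34 and 0.906 counts per kb in WT AGO2-IP and 3.08 and 3.52 in miR-379KO. Of other genes with a mean over 1000 total RNA counts, 26.4% were called lower in miR-379KO AGO2-IP. The marker sums therefore cannot tell a cell type from other genes of its level. Replicates of each group differed by more than counting error over all genes, with a chi-square per degree of freedom of 3.51 to 119, and over the members alone it was 1.45 to 6.66.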

How the data were processed

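Values were whole-read counts per gene, without normalization, as deposited by the authors in 1 list per library. Alignment by the authors used TopHat on mm10, followed by counting of uniquely placed, reverse-stranded reads on UCSC RefSeq genes with htseq-count (HTSeq 0.6.0), so reads shared by near-identical histone genes are lost. Total RNA libraries held 17168230 to 22660743 gene counts. The members and lists were chosen with earlier results of these data known.

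Symbols were matched to RefSeq GRCm38.p6 (all 69 members, 24319 of 24639 entries). Unique windows of 50 and 100 bases were counted on both strands of the genome, and the 16-base stem-loop was searched to 100 bases past each transcript end with up to 1 mismatch. Tests used edgeR 4.0.16 (R 4.3.3) with TMM, filterByExpr (minimum count 10) and the quasi-likelihood F test on the 4 libraries of an assay, or all 8 for comparisons across assays, with Benjamini-Hochberg adjustment over all tested genes at 0.05. DESeq2 1.42.0, other scalings, filters, a fitted offset correcting for GC content and transcript length (lowess span 0.3), the replicate letter as a block and omission of each library were alternatives. The scripts were tested on simulated data. Intervals were computed with scipy 1.17.1. Members named were the 2 with the most counts per class and assay, long-ended or known polyadenylated members, and those called (at most 5 per direction), or else the 2 with the smallest p-values per direction.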

Additional observations from a re-analysis of the deposited data

Results flagged for a closer look

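The summed H3 and H4 levels moved in opposite directions between genotypes in the 2 assays, with every library of miR-379KO beyond every library of WT. In total RNA the H3 sum was 32 and 34 counts in WT, against 70 and 47 in miR-379KO, and the H4 sum 39 and 44 against 79 and 57, which is 1.62 and 1.502 times the WT level in CPM. In AGO2-IP the H3 sum was 314 and 268 counts in WT, against 125 and 158 in miR-379KO, and the H4 sum 673 and 527 against 280 and 329, which is 0.473 and 0.496 times the WT level. The log2 difference between the assays was −1.78 for H3 and −1.5995 for H4. The difference of these sums was not tested, and each group had 2 libraries. With the library total outside Rn45s and Lars2, the ratios were 1.49 and 1.39 in total RNA and 0.71 and 0.74 in AGO2-IP. The correction for GC content and transcript length, which turned the members' AGO2-IP median to 0.060, was not applied to these sums. In total RNA, Hist1h3b alone had 18 and 8 counts in WT, then 32 and 22 in miR-379KO. Hist1h4h had 15 and 22, then 51 and 19.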

How the results depend on the processing

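When single libraries were left out, 49 to 52 members in WT and 44 to 51 in miR-379KO were called between AGO2-IP and total RNA, but 40 of the 53 members had a mean of at most 10 total RNA counts and passed the filter through AGO2-IP, so these counts are no sign of stability. The 9 calls between genotypes in AGO2-IP became 1 with DESeq2, 1 with all 8 libraries in one fit, 14 with RLE size factors, 23 without a filter on low counts, 0 of 10 with a minimum mean of 50 counts, 4 with the correction for GC content and length, and 3 with the library total outside Rn45s and Lars2. Calls over all genes moved too, from 30.9% to 5.94% with DESeq2, 3.94%, 32.2%, 21.8%, 5.51%, 26.5% and 29.6% in the same order. Leaving out single libraries gave 3 to 9. The median of −0.69 became −0.10 at the minimum of 50, 0.060 with the correction and −0.33 with that library total, and ran from −0.98 to −0.51 over left-out libraries. In total RNA the median of 0.24 became −0.041 with the correction and ran from −0.023 to 0.42 over left-out libraries. The cause of these changes was not tested, except that the minimum of 50 counts removes most members. Low counts limit total RNA, where 13 members could be tested.

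The median of the change beyond total RNA became −0.69 with DESeq2, −0.77 with RLE, −0.29 at the minimum of 50 and −0.49 with the library total outside Rn45s and Lars2, where all genes moved to 0.29, 0.28, −0.01 and 0.63. It ran from −1.17 to −0.64 over left-out libraries. Calls numbered 4 with the correction and 0 to 5 over left-out libraries. AGO2-IP over total RNA had WT medians of 7.69 with DESeq2, 7.32 with TMM without Rn45s and Lars2, 6.97 without a filter, 0.86 at the minimum of 50 (3 of 7 called), 6.86 with the correction, 7.20 with the outside total and 7.05 to 7.41 over left-out libraries. The miR-379KO medians were 6.34 with DESeq2, 6.255 with RLE, 0.63 at the minimum of 50 (3 called), 5.69 with the correction, 6.48 with the outside total and 5.78 to 6.365 over left-out libraries.

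Without the member with the most counts, log2 class ratios in WT were 5.785 for H1, 6.26 for H2A, 4.72 for H2B, 6.35 for H3 and 6.81 for H4, and in miR-379KO 5.41 for H1, 4.94 for H2A, 3.70 for H2B and 5.245 for H4. With the outside total they were 6.346 for H3 in WT, and 1.95 for H1, 5.27 for H3 and 6.15 for H4 in miR-379KO. Members without total RNA counts had 5.65 and 6.10 AGO2-IP counts per kb in WT and 2.42 and 3.05 in miR-379KO.

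Among single genes, Hist1h4d between genotypes in AGO2-IP became 0.13 with the correction. Over total RNA in WT, Hist3h2a became −0.15 with the correction and −0.24 without WT AGO2-IP A, and Hist1h2bc 0.030 at the minimum of 50. In miR-379KO, Hist3h2a became 0.092 with DESeq2 and RLE, 0.42 at the minimum of 50, 0.31 with the outside total, and −0.45 to 0.21 over left-out libraries, above 0 without total RNA A (0.21) and AGO2-IP B (0.0039). Hist1h1c became 0.14 with DESeq2 and RLE, 0.48 at the minimum of 50, 0.37 with the outside total, and −0.31 to 0.13 over left-out libraries, above 0 without total RNA A (0.13) and AGO2-IP A (0.030). Hist2h2be became −0.023 without a filter, −2.21 with the correction, and −0.47 to 0.53 over left-out libraries, below 0 without total RNA B (−0.19) and AGO2-IP B (−0.47). Hist1h4d was the only 1 of these that had been called.

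With the replicate letter as a block, 11 members were called between genotypes in AGO2-IP (1 higher, 10 lower), 24.4% of members beside 28.3% of all genes. Their median was −0.70 over the members tested. In total RNA 0 were called with a median of 0.21, and in the change beyond total RNA 0 with a median of −1.12. The block gave 49 calls in WT and 50 in miR-379KO between assays, 92.5% and 94.3% of members beside 42.9% and 60.8% of all genes. Same-letter deviations correlated at −0.09 between genotypes in total RNA (10763 genes) and 0.04 in AGO2-IP (4971 genes), and at 0.22 (WT) and 0.17 (miR-379KO) between the assays. No label says what the letters share, so no pairing was read from them.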
